A study of Homo sapiens with 24 samples.

Results

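The kinetochore is the protein machine that ties each chromosome to the spindle during mitosis, and 40 of its genes were followed here out of 28307 genes counted. They were matched by symbol from what their proteins do, by a rule that uses no measured value, although earlier results of these data were known when it was drawn up. All 40 were found and passed the filter on low counts in both cell lines. They fall into 6 roles, namely the constitutive centromere-associated network (CCAN, 13 genes), CENP-A and its deposition (4 genes), the outer kinetochore KMN network (10 genes), the SKA complex (3 genes), the fibrous corona (4 genes) and the spindle assembly checkpoint (6 genes).

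Centromeres are marked by nucleosomes that hold the histone variant CENP-A, which is loaded after mitosis. The CCAN sits on these nucleosomes through the cell cycle and recruits the KMN network, whose NDC80 complex grips microtubules. Kinetochores without microtubules hold the checkpoint proteins, which keep CDC20 from activating the anaphase-promoting complex until every chromosome is attached. Many of these genes are transcribed mainly in dividing cells, with their RNA highest late in the cell cycle. The comparison asked whether the constitutive centromere, the outer kinetochore and the checkpoint responded alike to treatment.

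RNA was sequenced from SUM159 cells, which come from a breast cancer, and SW620 cells, which come from a colon cancer. Cultures of each line had been kept for 30 h in nifuroxazide (NIF), a nitrofuran antibiotic, or in its vehicle DMSO, and were sorted afterwards into cells with high aldehyde dehydrogenase activity (ALDHbr, taken as enriched in cancer stem cells) and cells with low activity (ALDHneg). Each of the 8 groups held 3 libraries from independent experiments. The p-values measure the spread between libraries of a group, pooled over the 4 groups of a line, or over all 8 for the line difference. Without a block they treat all libraries as independent, and they speak for these cell lines only. The labels name no engineered allele, and the concentration of NIF used for these libraries was not given in the sources used here. Since the sort followed the treatment, the ALDHbr cells under NIF were those that had high activity after 30 h.

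The libraries held between 30253187 and 43127948 counts. Of 10 mesenchymal markers, all 10 averaged over 1 CPM (counts scaled to a fixed library size) in SUM159 and 3 did in SW620, with summed levels of 10019 to 13595 CPM against 88.5 to 163 CPM. Of 10 colon epithelial markers, 1 did in SUM159 and 8 in SW620, with sums of 229 to 397 CPM against 8692 to 10908 CPM. ALDH1A1, an enzyme of the kind the sort reads, was at 135 ± 27.7 CPM in SUM159 ALDHbr cells and 0.480 ± 0.062 CPM in ALDHneg cells under DMSO, but at 1314 ± 51.3 and 901 ± 19.3 CPM in SW620 (SD, n = 3 each), so that the ALDHneg cells of SW620 still held its RNA. Among SW620 ALDHbr libraries, replicate 2 under DMSO and replicate 3 under NIF stood apart, because their deviation from the other 2 libraries of the group followed the exon length of the genes (Spearman correlation over genes of 0.446 and -0.441). In replicate 1 under NIF and under DMSO this correlation was 0.395 and -0.384. The main counts of the SW620 ALDHbr comparisons are given with and without these libraries. In SUM159 the deviations of the libraries from their group means went together by replicate number. The labels do not say whether a number marks a shared experiment. Values from a fit with the replicate number as a block stand beside the SUM159 results wherever they change a call.

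As examples of promoters with late cell cycle motifs, the 250 bases before the start site of CDC20, ZW10 and HJURP are printed. They are in RefSeq sequence (GRCh38.p14), 5′ to 3′ along the gene. These were the genes described library by library that held 2 motifs typical of late cell cycle promoters before their start. Of the 32 genes with a promoter here, 7 held both motifs there, so that the printed promoters do not stand for the whole set. Capitals mark the cell cycle genes homology region (CHR), TTTGAA or TTCGAA, and the CCAAT box, each read on both strands, so that TTCAAA and ATTGG are the same motifs on the other strand. CDC20 (chr1:43358731-43358980, plus strand), ZW10 (chr11:113773693-113773942, minus strand) and HJURP (chr2:233854536-233854785, minus strand) read as follows.
CDC20: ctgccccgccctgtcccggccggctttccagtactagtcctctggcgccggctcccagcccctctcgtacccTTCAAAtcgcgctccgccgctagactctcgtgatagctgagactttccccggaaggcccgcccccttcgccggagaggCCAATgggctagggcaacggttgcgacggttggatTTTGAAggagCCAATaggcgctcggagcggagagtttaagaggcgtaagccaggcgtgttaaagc
ZW10: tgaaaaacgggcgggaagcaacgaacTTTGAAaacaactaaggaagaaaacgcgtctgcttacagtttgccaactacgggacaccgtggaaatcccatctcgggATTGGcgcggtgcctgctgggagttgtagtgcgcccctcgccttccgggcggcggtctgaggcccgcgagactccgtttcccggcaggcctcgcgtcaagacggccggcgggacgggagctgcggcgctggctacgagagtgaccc
HJURP: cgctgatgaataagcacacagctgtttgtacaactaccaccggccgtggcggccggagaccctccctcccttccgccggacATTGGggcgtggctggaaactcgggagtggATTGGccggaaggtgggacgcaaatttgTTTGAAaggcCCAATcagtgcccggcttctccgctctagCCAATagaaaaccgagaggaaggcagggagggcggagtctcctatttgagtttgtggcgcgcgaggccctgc
The CDC20 window held 2 CHR and 2 CCAAT matches, the ZW10 window 1 of each, and the HJURP window 1 CHR and 4 CCAAT matches.

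Of the 40 genes, 32 matched an entry in the RefSeq promoter table used here, which does not hold CENPM. In the window from 250 bases before to 50 bases after the start, a CHR was found in 19 of these 32 (59.4%), against 19.5% of the promoters of 27305 genes. A CCAAT box was found in 21 of 32 (65.6%, against 39.7% of all), and both motifs together in 13 of 32 (40.6%, against 7.85%). An E2F motif (TTTGGCGC, TTTGCCGC, TTTCGCGC or TTTCCCGC, on both strands) was found in 4 of 32 (12.5%, against 3.99%). In the bases before the start alone the CHR share was 25.0%, against 17.2% of all genes, and the CCAAT share was 65.6%, against 37.0%. Both motifs together were found there in 7 of 32 (21.9%, against 6.24%). Among the 24 genes with a promoter that fell under NIF in SW620 ALDHbr cells, 17 (70.8%) held a CHR in the whole window, and among the 8 that were not called, 2 (25.0%) did. Before the start alone these counts were 8 of 24 and 0 of 8. The genes were split here by their own call, and whether the 2 sets differ was not tested. A match describes these letters only and is not a measured binding site.

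In SW620 ALDHbr cells, most of the kinetochore genes fell under NIF. Of the 40 genes, 30 were called lower and 0 higher (edgeR quasi-likelihood test, Benjamini-Hochberg adjusted p under 0.05), where 43.3% of all 13953 genes tested were called, 21.9% lower and 21.4% higher. The median log2 fold change of the 40 genes was -0.32, against -0.01 for all genes. DESeq2 called 29 lower and 0 higher, where it called 36.8% of all genes. At an unadjusted p under 0.05 edgeR called 30 (50.5% of all genes), all of them those lower. The NIF and DMSO libraries did not overlap in 28 genes, all lower under NIF, against 22.5% of all genes lower without overlap. Without DMSO replicate 2 the count of lower genes was 29, where 50.4% of all genes were called. It was 26 without DMSO replicate 1, where 37.2% were called. Without NIF replicate 1 or NIF replicate 3 the count was 27, where 37.3% and 42.8% of all genes were called. In bulk RNA, fewer cells that express these genes and less RNA per cell cannot be told apart.

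By role, all 6 checkpoint genes and all 4 genes of CENP-A deposition fell, with medians of -0.49 and -0.47 on the log2 scale. The corona had 3 of 4 genes lower (median -0.36), the SKA complex 2 of 3 (-0.31), the KMN network 6 of 10 (-0.29) and the CCAN 9 of 13 (-0.26). The map of log2 fold changes shows that each role in SW620 held genes that fell, and that the CCAN, the KMN network, the SKA complex and the corona also held genes that were not called.

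**Figure D1:**
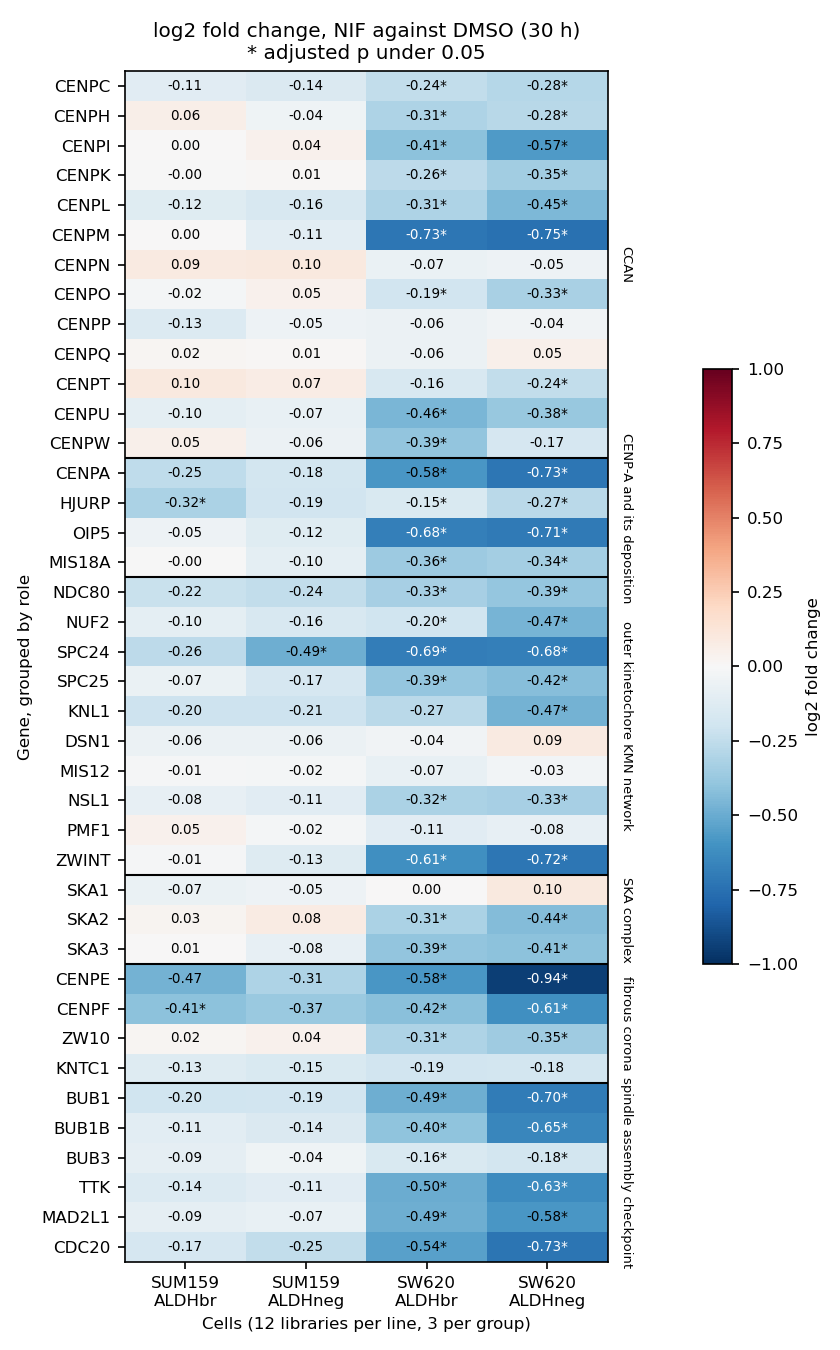
Log2 fold change of NIF against DMSO for the 40 genes (rows, grouped by role) in the 4 sorted populations (columns), with 3 libraries per group, where blue is lower under NIF and an asterisk marks an edgeR adjusted p under 0.05. The SW620 columns hold 30 and 31 marked genes, all lower, and the SUM159 columns hold 2 and 1.

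Of the CCAN, CENPM, which builds one subcomplex with CENPH, CENPI and CENPK, had the lowest value. In SW620 ALDHbr cells CENPM was at 36.9, 30.4 and 41.5 CPM under DMSO and at 20.5, 21.0 and 24.3 CPM under NIF. All NIF libraries lay below all DMSO libraries, giving -0.73 on the log2 scale (standard error 0.12, edgeR adjusted p = 0.00017), a 1.65-fold fall. CENPH, CENPI and CENPK also fell, by 0.31, 0.41 and 0.26 on the log2 scale, so that all 4 genes of this subcomplex were lower. CENPU fell by 0.46, CENPW by 0.39 and CENPL by 0.31.

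The calls for CENPC and CENPO, with log2 fold changes of -0.24 and -0.19, were weaker, since they were lost in 7 and 6 of 14 alternative fits. CENPN, which reads the CENP-A nucleosome together with CENPL, was not called (-0.07). CENPP (-0.06) and CENPQ (-0.06), which form a subcomplex with CENPO and CENPU, were not called either. CENPP had the highest value of the CCAN and was at 9.29, 7.77 and 8.69 CPM under DMSO and 8.34, 8.67 and 7.80 CPM under NIF, which overlap. CENPT, which reaches from the centromere to the NDC80 complex, had a log2 fold change of -0.16 that was not called (edgeR adjusted p = 0.10). It was at 25.9, 21.9 and 25.5 CPM under DMSO and 21.5, 21.7 and 22.6 CPM under NIF. In CENPP and CENPT the lowest DMSO library was replicate 2, which stood apart.

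The genes that place CENP-A at centromeres fell together with CENPA itself. OIP5, a subunit of the Mis18 complex that licenses the loading, was at 50.1, 39.7 and 43.7 CPM under DMSO and 26.8, 27.4 and 29.0 CPM under NIF. The groups were well separated, giving -0.68 on the log2 scale (standard error 0.07, edgeR adjusted p = 5.7e-06). MIS18A, its partner subunit, was at 24.1, 20.7 and 23.0 CPM under DMSO and 17.2, 17.5 and 18.2 CPM under NIF, a fall of 0.36 on the log2 scale without overlap. CENPA fell by 0.58 (standard error 0.08, edgeR adjusted p = 2.8e-05). HJURP, the chaperone that carries CENP-A, moved least of these 4, from 85.4, 80.2 and 84.0 CPM under DMSO to 74.6, 75.9 and 74.3 CPM under NIF. Its libraries did not overlap and its log2 fold change was -0.15 (edgeR adjusted p = 0.017), a call that was lost in 4 of 14 alternative fits.

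In the outer kinetochore, all 4 subunits of the NDC80 complex were called lower. SPC24 was at 42.4, 30.5 and 39.5 CPM under DMSO and 22.9, 23.7 and 23.1 CPM under NIF, a log2 fold change of -0.69 (standard error 0.10, edgeR adjusted p = 4.9e-05). The DMSO libraries spread more widely than the NIF libraries, and replicate 2, which stood apart, was the lowest of them. SPC25 fell by 0.39, NDC80 by 0.33 and NUF2 by 0.20, the last with a call lost in 8 of 14 alternative fits. ZWINT, which binds the scaffold KNL1, fell by 0.61 (standard error 0.05, edgeR adjusted p = 5.3e-07).

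The MIS12 complex, which joins the NDC80 complex to the CCAN, behaved less evenly. NSL1 fell by 0.32, whereas MIS12 (-0.07), DSN1 (-0.04) and PMF1 (-0.11) were not called. DSN1 was at 61.2, 49.2 and 56.5 CPM under DMSO and 52.5, 56.0 and 54.3 CPM under NIF, so that the NIF libraries lay inside the range of the DMSO libraries. PMF1 was at 27.2, 19.9 and 25.0 CPM and at 20.2, 19.5 and 27.0 CPM, which also overlap. It shares exons with a readthrough gene, PMF1-BGLAP, so that its counts are uncertain. In DSN1 and PMF1 the lowest DMSO library was replicate 2, which stood apart. KNL1 had a log2 fold change of -0.27 with a standard error of 0.14 and was not called (edgeR adjusted p = 0.14).

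The SKA complex follows the ends of shortening microtubules. SKA3 was at 55.0, 56.3 and 58.5 CPM under DMSO and 43.5, 42.4 and 43.4 CPM under NIF, a log2 fold change of -0.39 (standard error 0.05, edgeR adjusted p = 2.6e-05) without overlap. SKA2 was at 71.8, 65.2 and 59.1 CPM and at 47.7, 54.0 and 56.3 CPM, a fall of 0.31 on the log2 scale, again without overlap. SKA1 was at 21.5, 23.3 and 22.1 CPM under DMSO and 23.2, 21.6 and 22.0 CPM under NIF. Its log2 fold change was 0.00 (95% interval -0.17 to 0.17), so that it was the 1 subunit of its complex that was not called.

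Of the corona, CENPE, a kinesin that carries chromosomes to the spindle equator, was at 55.6, 69.2 and 54.3 CPM under DMSO and 45.5, 42.4 and 31.8 CPM under NIF, a log2 fold change of -0.58 (standard error 0.12, edgeR adjusted p = 0.0012). CENPF, a large protein of the outer corona, was at 139, 197 and 147 CPM and at 129.5, 128 and 104 CPM, a log2 fold change of -0.42 (standard error 0.12, edgeR adjusted p = 0.010). In both genes the libraries that stood apart were the extremes, with DMSO replicate 2 highest and NIF replicate 3 lowest. CENPE kept its call in all 14 alternative fits, with log2 fold changes from -0.68 to -0.44, and CENPF in 13, with -0.52 to -0.23. ZW10 and KNTC1 belong to the complex that brings dynein and the MAD proteins to unattached kinetochores. ZW10 was at 54.2, 52.0 and 51.6 CPM and at 43.0, 42.7 and 41.8 CPM, a fall of 0.31 on the log2 scale, and KNTC1 (-0.19), at 56.6, 66.2 and 56.6 CPM and at 57.8, 55.0 and 44.2 CPM, was not called.

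CDC20, the activator of the anaphase-promoting complex that the checkpoint restrains, was at 249, 222 and 258 CPM under DMSO and 159, 169.5 and 173 CPM under NIF in SW620 ALDHbr cells, that is -0.54 on the log2 scale (standard error 0.06, edgeR adjusted p = 1.1e-05). BUB1, a kinase and scaffold of the checkpoint, was at 111, 112 and 115 CPM and at 84.6, 81.6 and 74.9 CPM, a log2 fold change of -0.49 (standard error 0.06, edgeR adjusted p = 7.9e-06). Neither gene had overlapping groups. TTK, the kinase that starts checkpoint signalling, fell by 0.50, MAD2L1, which captures CDC20, by 0.49, and BUB1B, which blocks the complex together with it, by 0.40. BUB3, the adaptor that holds BUB1 and BUB1B on KNL1, was at 195, 172 and 181 CPM and at 158, 163 and 173 CPM. Only NIF replicate 3 lay above DMSO replicate 2, and both of these libraries stood apart. The log2 fold change of BUB3 was -0.16 (edgeR adjusted p = 0.040), a call that was lost in 8 of 14 alternative fits.

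**Figure D2:**
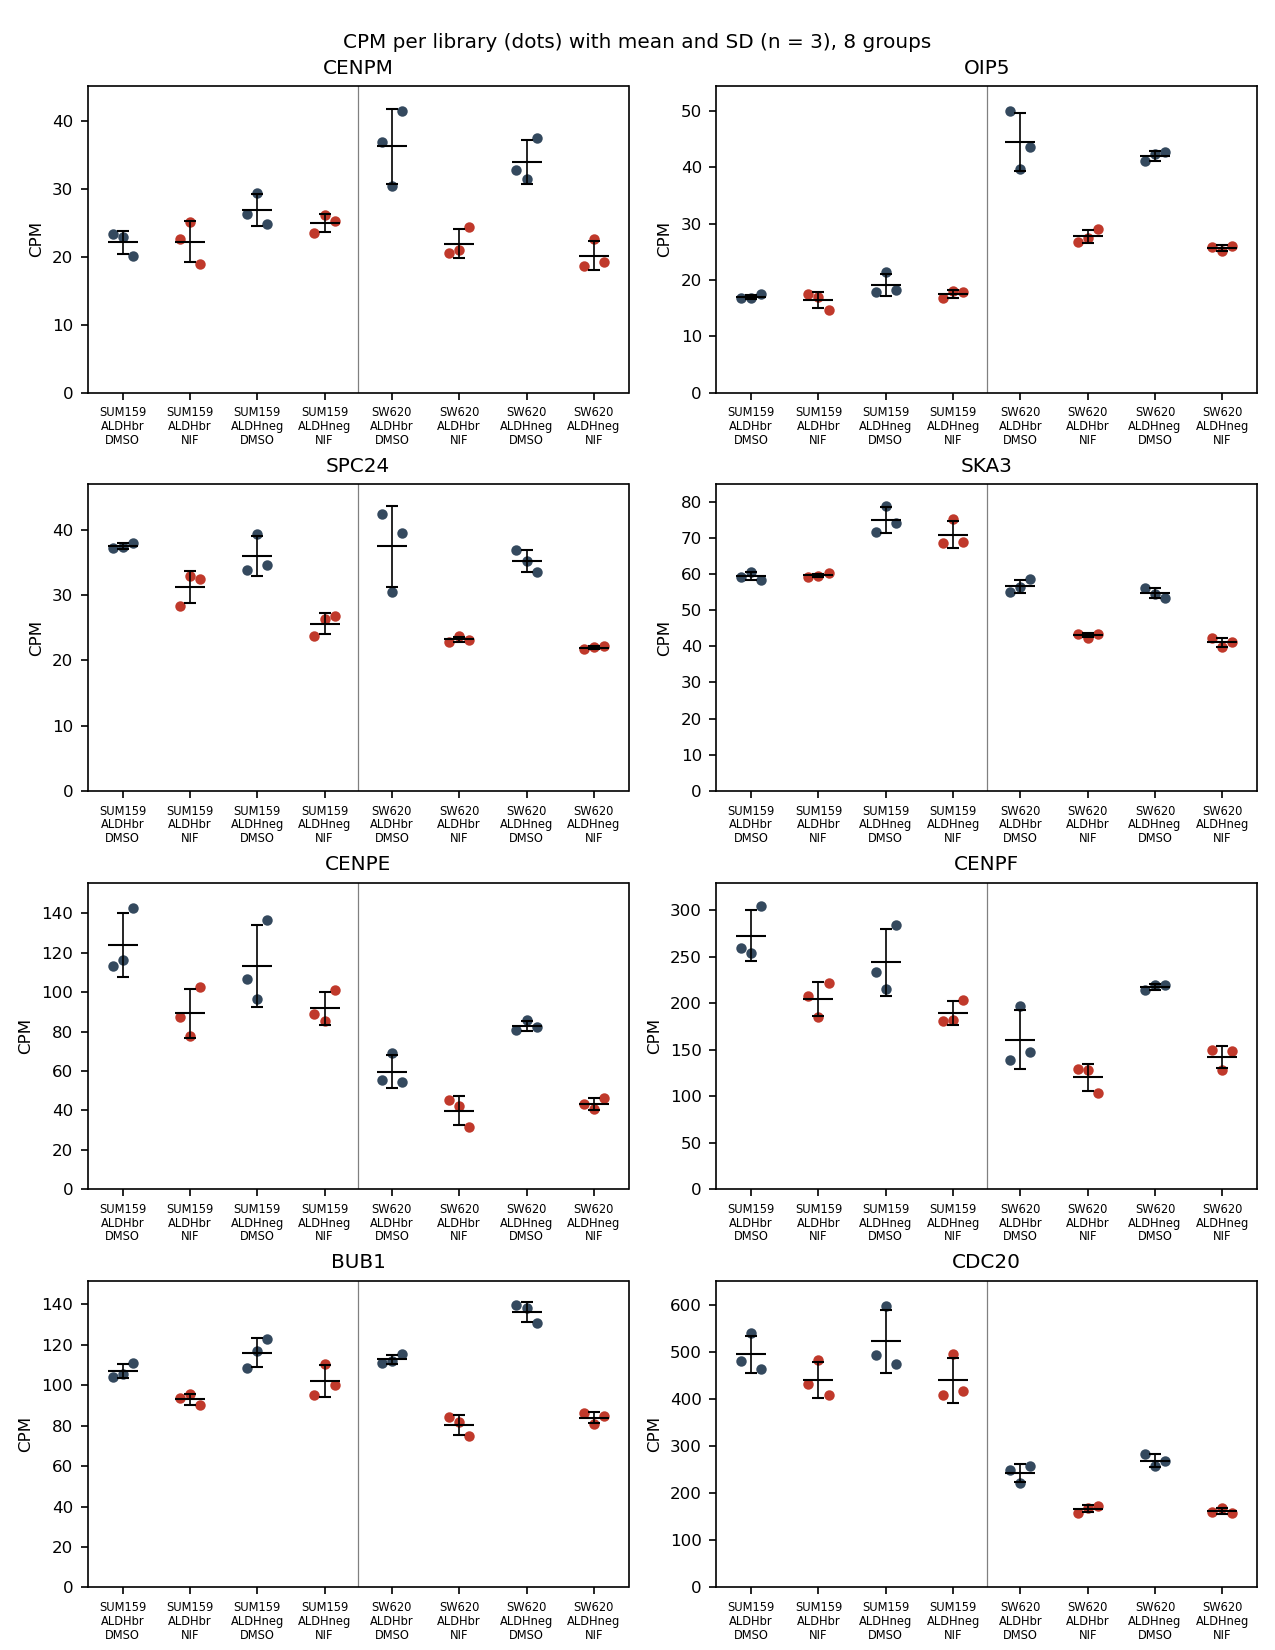
CPM of 8 genes in every library (dots, red under NIF and dark under DMSO) with the mean and SD of 3 libraries for the 8 groups, each axis starting at 0. In SW620 (right of the grey line) the NIF dots lie below the DMSO dots in both populations for all 8 genes. In SUM159 they overlap in both populations for CENPM, OIP5, SKA3 and CDC20, and in ALDHneg cells alone for CENPE and BUB1.

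In SW620 ALDHneg cells the pattern was as broad, with 31 of 40 genes lower and 0 higher, where 45.1% of all genes were called, 22.7% lower and 22.3% higher. DESeq2 also called 31 lower and 0 higher, where it called 39.3% of all genes. At an unadjusted p under 0.05 edgeR called 31 (51.7% of all genes), all of them those lower. The median log2 fold change was -0.38, against -0.01 for all genes. The libraries did not overlap in 33 genes that were lower (32% of all genes) and in 1 that was higher, DSN1 (0.09, not called). All 6 checkpoint genes fell, with a median of -0.64, and all 4 genes of CENP-A deposition, with a median of -0.52. The corona had 3 of 4 lower (-0.48), the SKA complex 2 of 3 (-0.41), the KMN network 7 of 10 (-0.41) and the CCAN 9 of 13 (-0.28).

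The lowest value in ALDHneg cells was that of CENPE, at 80.8, 85.8 and 82.4 CPM under DMSO and 43.0, 40.5 and 46.3 CPM under NIF, a log2 fold change of -0.94 (standard error 0.12, edgeR adjusted p = 1.6e-05), a 1.92-fold fall. BUB1 was at 139.9, 138 and 131 CPM and at 86.3, 80.9 and 84.9 CPM, a log2 fold change of -0.70 (standard error 0.06, edgeR adjusted p = 2e-07). CDC20 was at 283, 257 and 268 CPM and at 159.7, 169.6 and 158 CPM, with -0.73 (standard error 0.06, edgeR adjusted p = 5e-07). In all 3 genes the groups were far apart relative to their spread. CENPM (-0.75), CENPA (-0.73), ZWINT (-0.72), OIP5 (-0.71) and SPC24 (-0.68) followed closely. KNL1 (-0.47) and CENPT (-0.24) passed the test here and not in ALDHbr cells, and CENPW (-0.17) the reverse, but the interaction described next called none of them. CENPN, CENPP, CENPQ, DSN1, MIS12, PMF1, SKA1 and KNTC1 were called in neither population.

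The response of the populations was compared directly by the interaction, the effect in ALDHbr cells minus that in ALDHneg cells. In SW620, edgeR and DESeq2 called 0 of 40 genes, where edgeR called 0.00717% of all genes (1 gene), and 4 of the 40 had an unadjusted p under 0.05, as did 5.53% of all genes. Leaving out each library in turn also gave 0, with medians over the 40 genes of 0.03 to 0.09. Those 4 were CENPE, NUF2, BUB1 and BUB1B, which were singled out after their values were seen. All 6 checkpoint genes had a difference above 0, that is a smaller fall in ALDHbr cells, with a median of 0.16. Of the 40 genes 13 lay below 0, as did 6911 of all 13953 genes. For BUB1B the difference was 0.24 (standard error 0.07, edgeR adjusted p = 0.58) and for CENPE 0.36 (standard error 0.17, edgeR adjusted p = 0.90). Beside this, the difference over all genes correlated with exon length (Spearman 0.205, and 0.400 over the 40 genes), and its part in these values was not tested. CENPF (12471 bases of exon) and CENPE (9928 bases) are among the longest of the 40.

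Fewer of the genes passed the test in SUM159. In ALDHbr cells of this line 2 of 40 genes were lower, HJURP and CENPF, and 0 higher, where 3.16% of all 14953 genes were called and 2.23% lower. The median log2 fold change of the 40 was -0.08, against 0.00 for all genes. Of the 40, 29 lay below 0, as did 7580 of all 14953 genes. The CCAN had a median of 0.00, and its log2 fold changes ran from -0.13 to 0.10. Of its 13 genes 0 were called by edgeR, with the block or by DESeq2, and 0 had an unadjusted p under 0.05. For so few genes, 0 calls lie near the shares of all genes called that are given in this paragraph. At an unadjusted p under 0.05, 7 of the 40 differed, against 16.7% of all genes, which is near the same share. DESeq2 called 5 lower and 0 higher, where it called 6.32% of all genes. With the replicate block, 9 genes were called lower and 0 higher, where 13.3% of all genes were called with the block and 7.56% lower. These were CENPA and HJURP, NDC80, SPC24 and KNL1, CENPE and CENPF, and BUB1 and CDC20. They came from CENP-A deposition, the KMN network, the corona and the checkpoint, and a difference between roles was not tested.

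HJURP was at 73.4, 77.7 and 65.5 CPM under DMSO and 58.5, 57.2 and 58.2 CPM under NIF in SUM159 ALDHbr cells, with -0.32 on the log2 scale (standard error 0.06, edgeR adjusted p = 0.011, or 0.00040 with the block). CENPF was at 259.8, 253 and 304 CPM and at 207, 185 and 221 CPM, a log2 fold change of -0.41 (standard error 0.10, edgeR adjusted p = 0.038, or 4.8e-06 with the block). Neither gene had overlapping groups, against 12.2% of all genes that were lower without overlap. Without DMSO replicate 1 or DMSO replicate 2 neither gene was called, and without NIF replicate 1, NIF replicate 2 or DMSO replicate 3 HJURP alone was. Without NIF replicate 3 the count was 3, where 1.98% of all genes were called.

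CENPE had the lowest value in SUM159 ALDHbr cells and missed the threshold without the block. It was at 113, 116 and 143 CPM under DMSO and 87.5, 77.9 and 103 CPM under NIF, with replicate 3 the highest of both groups. Its log2 fold change was -0.47 (standard error 0.13, edgeR adjusted p = 0.061), and with the block the adjusted p was 2.0e-06. SPC24 was at 37.2, 37.4 and 38.1 CPM and at 28.4, 33.0 and 32.4 CPM, with -0.26 (edgeR adjusted p = 0.091, or 0.0065 with the block). BUB1 was at 104, 106 and 111 CPM and at 93.6, 95.6 and 90.2 CPM, with -0.20 (edgeR adjusted p = 0.12, or 0.014 with the block). CDC20 was at 481, 539.6 and 464 CPM and at 431, 482 and 408 CPM, which overlap, although each NIF library lay below the DMSO library of the same replicate number, and its log2 fold change was -0.17 (edgeR adjusted p = 0.43, or 0.010 with the block).

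Several genes that fell in SW620 were not called in SUM159 ALDHbr cells. CENPM was at 23.4, 22.9 and 20.2 CPM under DMSO and 22.6, 25.1 and 19.0 CPM under NIF, and OIP5 at 16.7, 16.7 and 17.5 CPM and at 17.5, 17.0 and 14.8 CPM. SKA3 was at 59.2, 60.5 and 58.4 CPM and at 59.3, 59.3 and 60.1 CPM. In all 3 the groups overlapped. MIS18A was at 34.0, 35.5 and 30.0 CPM and at 33.3, 35.0 and 31.0 CPM, and SKA2 at 90.7, 85.7 and 87.0 CPM and at 95.7, 80.8 and 91.9 CPM. ZWINT had a log2 fold change of -0.01, ZW10 of 0.02 and BUB3 of -0.09, and none was called.

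Other genes at the ends of their roles in SUM159 ALDHbr cells had small differences. CENPT was at 49.6, 52.3 and 51.6 CPM under DMSO and 53.2, 54.6 and 56.5 CPM under NIF, above it without overlap, with a log2 fold change of 0.10 that was not called (edgeR adjusted p = 0.42). Of all genes, 11% were higher without overlap. CENPP, at 16.2, 16.4 and 17.2 CPM and at 15.2, 14.6 and 15.6 CPM, had the lowest value of the CCAN (-0.13, not called). PMF1 was at 18.0, 14.9 and 17.0 CPM and at 15.6, 17.4 and 18.5 CPM, and SKA1 at 40.4, 39.9 and 43.8 CPM and at 36.3, 36.1 and 45.9 CPM, and both overlapped.

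In SUM159 ALDHneg cells 1 of 40 genes was lower, SPC24, and 0 higher, where 3.3% of all genes were called, 2.2% lower and 1.1% higher. SPC24 was at 33.9, 39.5 and 34.6 CPM under DMSO and 23.8, 26.4 and 26.8 CPM under NIF, without overlap, a log2 fold change of -0.49 (standard error 0.08, edgeR adjusted p = 0.0037), a 1.40-fold fall. It kept its call in all 14 alternative fits. The median log2 fold change of the 40 genes was -0.10, against 0.00 for all genes, and 10 of the 40 had an unadjusted p under 0.05, against 16.8% of all genes. DESeq2 called 3 lower and 0 higher, where it called 6.27% of all genes, and without DMSO replicate 2 edgeR called 2 (3.82% of all genes). With the replicate block 8 genes were lower and 0 higher, where 13.2% of all genes were called and 7.08% lower, namely HJURP, NDC80, SPC24, KNL1, CENPE, CENPF, BUB1 and CDC20.

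Some of these genes are given in full for ALDHneg cells of SUM159. HJURP was at 75.9, 73.0 and 72.3 CPM under DMSO and 64.1, 65.5 and 63.6 CPM under NIF (log2 fold change -0.19, edgeR adjusted p = 0.11, or 0.017 with the block). CENPE was at 107, 96.4 and 137 CPM and at 88.7, 85.4 and 101 CPM (-0.31, edgeR adjusted p = 0.24, or 0.00058 with the block). CENPF was at 233, 215 and 284 CPM and at 181, 182 and 204 CPM (-0.37, edgeR adjusted p = 0.063, or 2.6e-05 with the block). HJURP and CENPF did not overlap and CENPE did. Of the 40 genes 11 were lower without overlap, as were 1506 of all 14953 genes. The interaction in SUM159 called 0 of 40 genes by edgeR or DESeq2, with 0 at an unadjusted p under 0.05, and edgeR called 0% of all genes. With the block it called 0 of the 40 and 0.0401% of all genes.

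**Figure D3:**
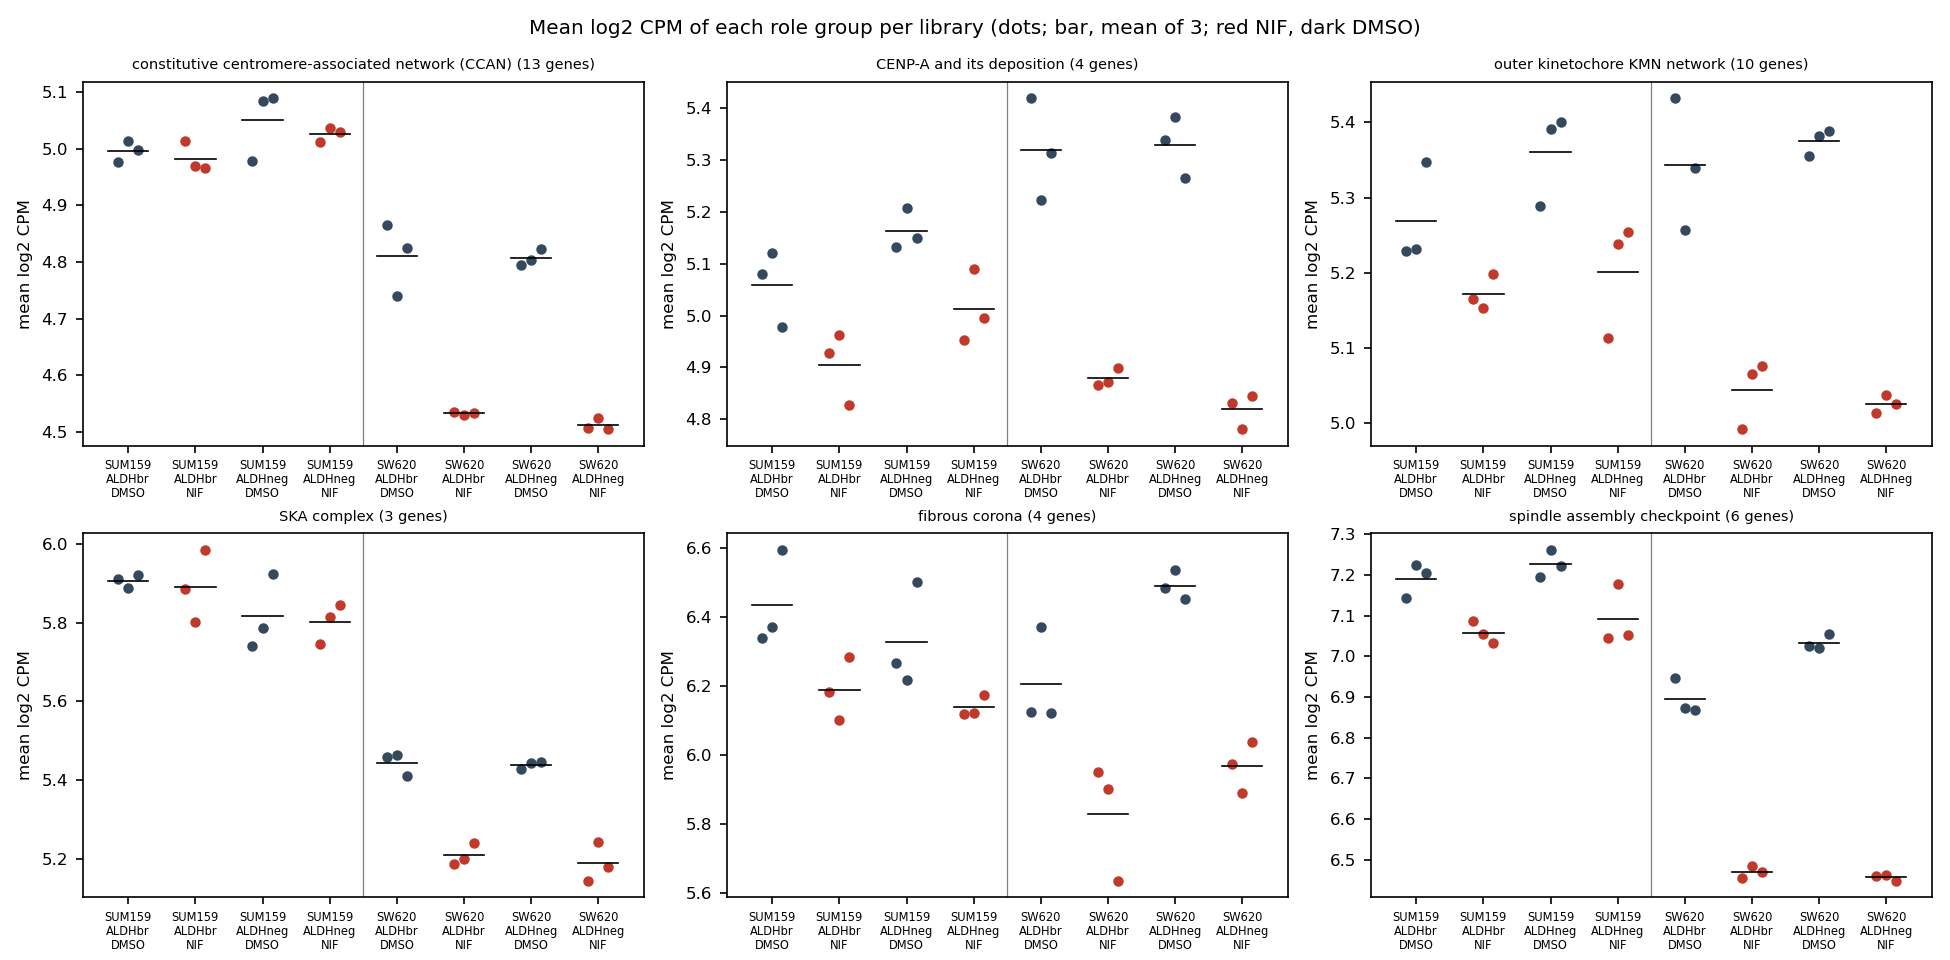
Mean log2 CPM of the genes of each role in every library (dots, red under NIF and dark under DMSO; bar, mean of 3 libraries) for the 8 groups, with axes that do not start at 0. The SW620 NIF libraries lie below the SW620 DMSO libraries in all 6 roles, and in SUM159 the CCAN and SKA panels overlap between NIF and DMSO.

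As a description of each role by library, the mean log2 CPM of the checkpoint genes was 6.90 ± 0.04 under DMSO and 6.47 ± 0.02 under NIF in SW620 ALDHbr cells, and 7.19 ± 0.04 and 7.06 ± 0.03 in SUM159 ALDHbr cells (SD, n = 3 each). That of the CCAN was 4.81 ± 0.06 and 4.53 ± 0.00 in SW620, and 5.00 ± 0.02 and 4.98 ± 0.03 in SUM159. The NIF and DMSO libraries did not overlap in either role in SW620, and in SUM159 they overlapped in the CCAN and not in the checkpoint. The 40 genes took 0.248% of the counts under DMSO and 0.189% under NIF in SW620 ALDHbr cells, and 0.291% and 0.264% in SUM159 ALDHbr cells.

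The difference between the lines was tested in 1 fit of all 24 libraries. In ALDHbr cells 20 of 40 genes had a lower response in SW620 than in SUM159 and 0 a higher one, where 23.1% of all 16271 genes differed and 10.7% were lower. By role these were 6 of 13 CCAN genes, 3 of 4 of CENP-A deposition, 3 of 10 of the KMN network, 2 of 3 of the SKA complex, 1 of 4 of the corona and 5 of 6 of the checkpoint. The differences were -0.73 for CENPM (standard error 0.16, edgeR adjusted p = 0.0018), -0.64 for OIP5 (standard error 0.12, edgeR adjusted p = 0.00029) and -0.60 for ZWINT (standard error 0.08, edgeR adjusted p = 8.8e-06). DESeq2 called 20 lower and 1 higher, where it called 27.6% of all genes. The count fell to 11 without SW620 DMSO replicate 1, where 18.9% of all genes were called, and to 12 without SUM159 NIF replicate 2 (19.6%). It fell to 13 without SUM159 DMSO replicate 1 (19.9%) or with no filter on low counts (14.5%). BUB1B, CENPM, CENPW, MAD2L1, OIP5, SKA3 and ZWINT were called in all 18 alternative fits.

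Of the 9 genes called lower in SUM159 ALDHbr cells with the block, 4 also differed between the lines and 5 were not called. The difference was -0.11 for NDC80, -0.01 for CENPF (95% interval -0.35 to 0.33), -0.11 for CENPE (-0.50 to 0.28), -0.07 for KNL1 (-0.45 to 0.32) and 0.16 for HJURP (0.01 to 0.32), and none of these 5 was called. The intervals of CENPF, CENPE and KNL1 also hold a difference as large as that of BUB1 (-0.29), so that equal responses are not shown. Beside this, the difference over the 40 genes correlated with exon length (Spearman 0.484, against 0.108 over all genes), and its part was not tested. CENPA (-0.33), SPC24 (-0.43), BUB1 (-0.29) and CDC20 (-0.37) were the 4 called. In ALDHneg cells 19 of 40 genes had a lower response in SW620 and 0 a higher one, where 22.4% of all genes differed and 10.5% were lower. DESeq2 also called 19 genes lower and 0 higher (25.2% of all genes called). CENPE (-0.63), BUB1 (-0.50), BUB1B (-0.50) and CDC20 (-0.47) were among those called by edgeR, whereas SPC24 (-0.19), HJURP (-0.07) and CENPF (-0.24) were not called.

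Before treatment the lines differed gene by gene. Under DMSO in ALDHbr cells 16 of 40 genes were higher and 13 lower in SW620 than in SUM159, where 81.3% of all genes were called, 41.7% lower and 39.6% higher. With library-size scaling, which moved the median of all genes by 0.15 on the log2 scale, the split was 13 higher and 17 lower, so that only large differences are named. OIP5 was 44.5 ± 5.21 CPM in SW620 and 17.0 ± 0.43 CPM in SUM159 (SD, n = 3 each), with a log2 difference of 1.57 (standard error 0.08, edgeR adjusted p = 9.2e-15). The CPM were scaled within each line and the log2 differences came from the fit of both lines, so that they do not match exactly. ZW10 was 1.19, CENPU 0.94, CENPM 0.89 and MAD2L1 0.84 higher in SW620 on the log2 scale, and CENPT 0.89, CENPE 0.88, CDC20 0.85 and CENPP 0.77 lower.

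Per kilobase of exon, CDC20 had the highest level of the 40 genes in both lines under DMSO, with 246 ± 19.7 CPM per kb in SUM159 ALDHbr cells and 121 ± 9.4 CPM per kb in SW620 ALDHbr cells (SD, n = 3 each). ZWINT followed in both, with 62.2 ± 2.2 and 72.0 ± 4.1 CPM per kb. The third was CENPW in SUM159, at 35.0 ± 1.7, which did not differ from BUB1B, at 33.9 ± 1.6, beyond their spread. In SW620 it was OIP5, at 37.1 ± 4.3. The lowest were CENPP, NSL1 and CENPC in both lines, at 1.78, 1.93 and 2.09 CPM per kb in SUM159 and 0.921, 1.56 and 1.85 in SW620. The length joins all annotated exons of a gene, so that this order also depends on the annotation.

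ALDHbr and ALDHneg cells were then compared under DMSO. In SUM159 6 of 40 genes differed, 2 higher and 4 lower in ALDHbr cells, where 23% of all genes were called, 10.7% higher and 12.3% lower. The populations did not overlap in 9 genes that were lower and 2 that were higher, against 2774 and 2702 of all 14953 genes. MIS12, which anchors the outer kinetochore, was at 16.4, 16.5 and 18.7 CPM in ALDHbr cells and 32.2, 32.4 and 30.7 CPM in ALDHneg cells, a log2 difference of -0.88 (standard error 0.08, edgeR adjusted p = 8.4e-07), a 1.84-fold difference. Under NIF it was at 18.4, 16.5 and 16.2 CPM and at 29.8, 32.1 and 32.0 CPM, again without overlap. The other 3 subunits of its complex did not follow, with differences of -0.08 for NSL1, 0.13 for DSN1 and -0.02 for PMF1 that were not called. In SW620 MIS12 was at 23.5, 22.1 and 22.1 CPM in ALDHbr cells and 21.2, 21.2 and 23.1 CPM in ALDHneg cells, with 0.05 (edgeR adjusted p = 0.61).

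The SKA genes went apart in SUM159. SKA1 was at 40.4, 39.9 and 43.8 CPM in ALDHbr cells and 26.6, 27.2 and 33.0 CPM in ALDHneg cells, a log2 difference of 0.51 (standard error 0.11, edgeR adjusted p = 0.0032). SKA3 was at 59.2, 60.5 and 58.4 CPM and at 71.7, 78.8 and 74.1 CPM, a difference of -0.33 (standard error 0.06, edgeR adjusted p = 0.00053). Neither overlapped, and SKA2 (0.08) was not called. CENPP was higher in ALDHbr cells, at 16.2, 16.4 and 17.2 CPM against 13.1, 12.2 and 13.0 CPM, with 0.37 (standard error 0.08, edgeR adjusted p = 0.0023). Other genes lie within CENPP, and how reads there were assigned is not given in the sources used here, so that its counts are uncertain. CENPQ (-0.28) and SPC25 (-0.22) were called lower as well, with calls lost in 5 and 6 of 14 alternative fits. With the replicate block 12 genes were called, 5 higher and 7 lower, where 36% of all genes were. The block added CENPM, CENPO and CENPA (lower) and KNL1, CENPE and CENPF (higher).

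**Figure D4:**
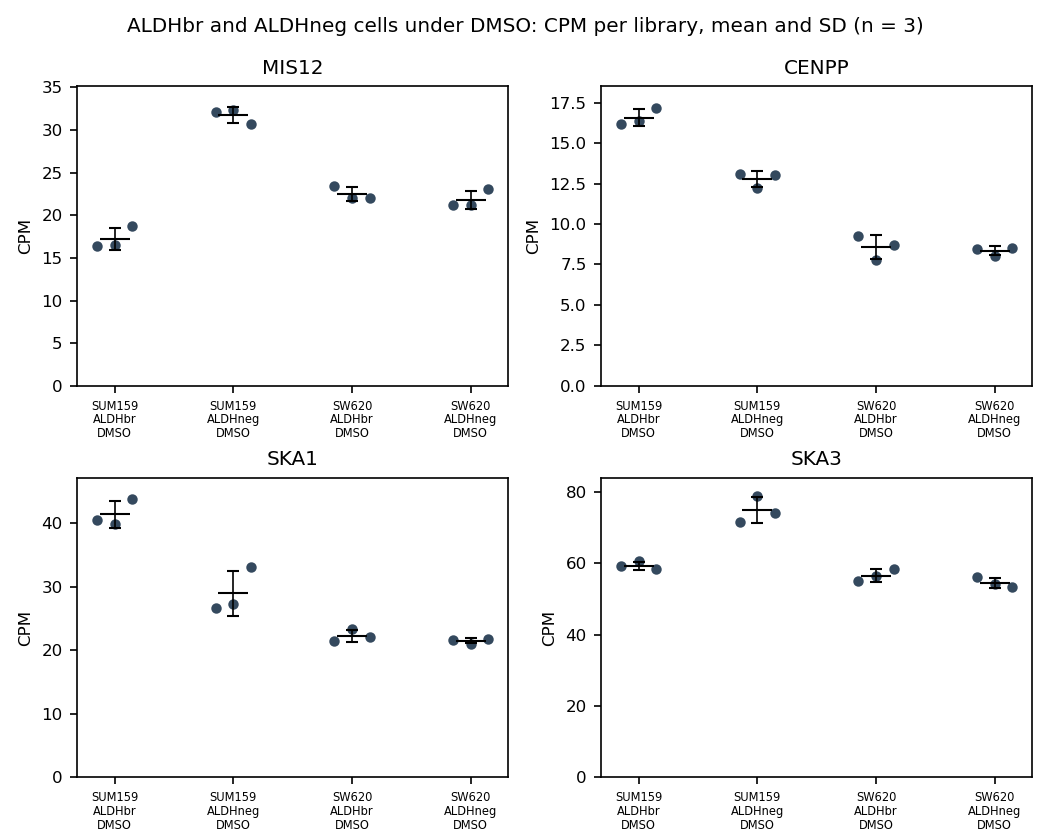
CPM of MIS12, CENPP, SKA1 and SKA3 in every DMSO library (dots) of ALDHbr and ALDHneg cells of both lines, with the mean and SD of 3 libraries and axes from 0. In SUM159 the populations do not overlap in any of the 4 genes, with MIS12 and SKA3 lower and CENPP and SKA1 higher in ALDHbr cells, while in SW620 they overlap in all 4. Of all 14953 genes tested in SUM159, 2774 were lower and 2702 higher without overlap.

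In SW620 6 of 40 genes were lower in ALDHbr than in ALDHneg cells under DMSO and 0 higher, where 11.3% of all genes were called, 5.86% lower and 5.45% higher. The populations did not overlap in 11 genes that were lower and 0 that were higher, against 2051 and 1897 of all 13953 genes. BUB1 was at 111, 112 and 115 CPM in ALDHbr cells and 139.9, 138 and 131 CPM in ALDHneg cells, a log2 difference of -0.27 (standard error 0.06, edgeR adjusted p = 0.0066). BUB1B was at 124, 135 and 127 CPM and at 160.1, 153 and 152 CPM, also with -0.27 (standard error 0.05, edgeR adjusted p = 0.0035), and its counts are less certain because a readthrough gene, BUB1B-PAK6, overlaps it. Neither overlapped, and both were called in all 14 alternative fits. CENPE (-0.48), CENPF (-0.44), CENPI (-0.25) and CENPO (-0.23) were called in 9, 8, 5 and 8 of them. Without ALDHbr DMSO replicate 2, which stood apart, 15 genes were called, 10 lower and 5 higher, where 38.8% of all genes were. Without any other single library 2 were called, where 5.03% to 5.45% of all genes were, so that both counts are near the share of all genes. DESeq2 called 8 lower and 1 higher (16% of all genes called), and at an unadjusted p under 0.05 edgeR called 13, near the share of all genes (31.7%). The difference followed exon length over all genes (Spearman -0.362) and over the 40 (-0.546), and its part in these calls was not tested. The ALDHbr DMSO libraries of this comparison are also the controls of the NIF comparison.

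The neighbours of these genes were counted in 4 lists chosen by function, to be read against the 21.9% of all genes lower and 21.4% higher in SW620 ALDHbr cells and the 2.23% lower in SUM159 ALDHbr cells. In SW620 ALDHbr cells 4 of 6 other centromere genes were lower under NIF (median -0.38), among them ITGB3BP (-0.61), which encodes the CCAN subunit CENP-R. All 6 genes of the chromosomal passenger complex and centromere cohesion were lower (median -0.45), from BIRC5 (-0.81) to INCENP (-0.24), both subunits of the passenger complex. Of 12 other corona and checkpoint genes 5 were lower and 1 higher (median -0.11), from TRIP13 (-0.44), an ATPase that remodels MAD2, to NDEL1 (0.34), a partner of dynein. Of 20 genes of the anaphase-promoting complex and anaphase 8 were lower and 1 higher (median -0.12), from ANAPC15 (-0.69) to CDC16 (0.30), both subunits of that complex. In SUM159 ALDHbr cells the same lists had 0, 1, 1 and 0 genes lower and 0 higher, with medians of -0.13, -0.18, -0.03 and -0.03, and those called were INCENP (-0.25, edgeR adjusted p = 0.027) and CLASP1 (-0.71, edgeR adjusted p = 4.3e-05), which stabilises microtubule ends at kinetochores. With the replicate block the lists had 1, 3, 3 and 3 genes lower and 0, 0, 0 and 1 higher. In that fit 13.3% of all genes were called, 7.56% lower.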

How the data were processed

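RNA was sequenced with a stranded total RNA kit, and the raw counts of reads per gene that the authors deposited cover 24 libraries. The submitters' processing notes name FastQC, STAR and GRCh38. Versions, the counting tool, its annotation and its strand setting are not given in the sources used here. Of 28307 genes, 4579 had no count in any library.

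The 40 genes were matched by symbol. The genes, lists, motifs and tests were chosen with earlier results of these data known. Genes described library by library were the lowest and the highest of each role in the NIF comparison of ALDHbr cells in either line, with any gene called in SUM159, in an interaction or in opposite directions. Printed promoters were those of such genes with a CHR and a CCAAT box before the start. MIS12 and BUB1B, given by library between ALDHbr and ALDHneg cells, and other genes named were chosen after their values were seen.

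Counts were tested with edgeR 4.0.16 (TMM scaling, quasi-likelihood test, its filter on low counts, 4 groups of 3 libraries in each line, or 8 groups for the line difference) in R 4.3.3, with Benjamini-Hochberg adjusted p under 0.05 as the call. Fold changes are NIF against DMSO, ALDHbr against ALDHneg or SW620 against SUM159, and intervals are 95% intervals. CPM used TMM library sizes computed within each line, so that CPM of the lines are not on one scale. Log2 CPM used a prior count of 2. Exon lengths came from a GENCODE annotation on GRCh37 by gene name, as the union of all annotated exons of a gene, and promoters from RefSeq.

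Libraries with 30253187 to 43127948 counts differed between replicates by 1.95 to 43.1 in chi-square per gene, so no library was counted as a copy of another. In SUM159 libraries of the same replicate number went together, as the correlation of deviations from the group means was 0.125 to 0.451 in all 18 same-number pairs and -0.278 to 0.0706 in 36 others. In SW620 1 of 18 was over 0.1, which does not show whether those libraries were paired. Alternatives were DESeq2 1.42.0, other scalings, no filter or at least 10 counts in every library, other sets of libraries, the replicate block, and each library left out. Each fit was checked on simulated counts.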

Additional observations from a re-analysis of the deposited data

Results flagged for a closer look

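The response to NIF differed between the lines by a test of the difference itself, the edgeR fit of all 24 libraries. It called 20 of 40 genes in ALDHbr cells and 19 in ALDHneg cells, all with a lower log2 fold change in SW620 than in SUM159, where 23.1% and 22.4% of all genes were called and 10.7% and 10.5% were lower.

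Of the genes described library by library, only those called are given here. The called differences in ALDHbr cells were -0.73 for CENPM and -0.26 for CENPT in the CCAN. In the Mis18 complex they were -0.64 for OIP5 and -0.36 for MIS18A. They were -0.43 for SPC24, -0.34 for SKA2 and -0.40 for SKA3 at the microtubule interface. They were -0.33 for ZW10, -0.29 for BUB1 and -0.37 for CDC20 in the corona and checkpoint. CENPE, CENPF and SKA1 were among the genes not called, and HJURP, also not called, went the other way (0.16).

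In ALDHneg cells the called differences were -0.64 for CENPM, -0.31 for CENPT and -0.58 for OIP5. For the SKA genes they were -0.51 (SKA2) and -0.32 (SKA3). In the corona and checkpoint they were -0.63 for CENPE, -0.39 for ZW10, -0.50 for BUB1 and -0.47 for CDC20. HJURP, SPC24, CENPF and SKA1 were among the genes not called.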

How the results depend on the processing

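The genes chosen by rule for description by library had 30 called values in the 4 NIF comparisons. Over 14 alternatives each, 394 of these kept their direction and the threshold, 26 kept their direction and lost it, and 0 reversed. Of their 46 uncalled values, 11 gained a call in at least 1 alternative, 9 of them in SUM159. The count of 30 lower genes in SW620 ALDHbr cells ran from 24 to 31 over its 14 alternatives, where 28.5% to 50.4% of all genes were called. That of 31 in ALDHneg cells ran from 28 to 33, where 29.8% to 60.6% of all genes were called. In SUM159 ALDHbr cells (2 lower) the replicate block gave 9, DESeq2 5, and leaving out 1 library 0 to 3 (1.46% to 2.12% of all genes). In SUM159 ALDHneg cells (1 lower) the replicate block gave 8 and DESeq2 3. No filter on low counts gave 2 (2.78% of all genes), all 24 libraries 3 (4.57%), and leaving out 1 library 1 to 2 (1.27% to 3.82%). Between ALDHbr and ALDHneg cells under DMSO the replicate block gave 12 in SUM159 (6 without it). In SW620 (6) a fit of only the groups compared gave 3 (5.38% of all genes) and leaving out 1 library 2 to 15 (5.03% to 38.8%). The line difference in ALDHbr cells (20) was 13 with no filter (14.5% of all genes), and 11 to 19 with 1 library left out (18.8% to 28%). In SW620, where the deviations did not follow the replicate number, the block gave 28 and 31 genes lower under NIF (40.9% and 42.8% of all genes called). Between populations it gave 5 (8.19%). The CHR share of 59.4% was 25.0% before the start alone, and the share with a CHR and a CCAAT box moved from 40.6% to 21.9%. The cause of these shifts was not tested. With 3 libraries a group, small differences of genes with few counts could not be resolved.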
